A study of Homo sapiens with 12 samples.

Results

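The genes described here are 42 genes that act in the G2 phase of the cell cycle and in mitosis. They were chosen as a list of symbols, and each was matched through its Ensembl identifier to 1 gene of a count table of 57783 genes. All 42 of 42 passed the filter on low counts and were among the 16327 genes tested. The list holds 6 genes of cyclin-dependent kinase 1 activity, 5 mitotic kinases, 5 spindle checkpoint genes, 3 of the anaphase-promoting complex pathway, 6 kinesins, 6 centromere and chromosomal passenger genes, TOP2A and MKI67, 6 spindle assembly genes, 2 cytokinesis genes and the transcription factor FOXM1.

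RNA was sequenced from MDA-MB-468, an established human triple-negative breast cancer line grown in culture, so all libraries derive from 1 line. Cells received either the solvent DMSO or 0.5 µM EPZ5676, an inhibitor of the histone H3 methyltransferase DOT1L, for 10 days. Both kinds of culture were afterwards sorted into ALDH1+ and ALDH1- populations by their aldehyde dehydrogenase 1 status, which gave 4 groups of 3 biological replicates: DMSO ALDH1+, EPZ5676 ALDH1+, DMSO ALDH1- and EPZ5676 ALDH1-. Total counts lay between 24348594 and 29368821 in 10 of the 12 libraries. DMSO ALDH1+ replicate 3 had 58004508 and EPZ5676 ALDH1+ replicate 2 had 80195050.

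Genes typical of basal-like breast epithelium were abundant in every library. EGFR was at 4600 to 11500 CPM (counts per 1000000 counts), KRT5 at 2060 to 2620 CPM and EPCAM at 520 to 781 CPM, and of the 3 receptor genes that are low in triple-negative lines, PGR was at 0 to 0.0351 CPM, ESR1 at 6.83 to 10.8 CPM and ERBB2 at 34.0 to 66.4 CPM. The summed level of 10 markers of other cell types was 17.5 to 25.2 CPM in the DMSO libraries and 29.8 to 37.6 CPM in the EPZ5676 libraries, most of it from COL1A1 and CSF1R. ADIPOQ, a fat cell gene, and DCN, a fibroblast gene, were at 0 in all 12 libraries. The fibroblast collagen genes COL1A1 and COL1A2 were detected, at 8.76 to 24.6 CPM and 0.0177 to 0.438 CPM. COL1A1 rose with EPZ5676 by 1.02 in ALDH1+ and by 0.72 in ALDH1- cells on the log2 scale. Of the 5 markers that passed the filter, 4 rose and 1 fell in ALDH1+ cells, and 3 rose in ALDH1- cells. The sum was higher with EPZ5676 in both populations, and its part in the results below was not tested.

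Cells enter mitosis when CDK1, bound to a B-type cyclin, is freed of inhibitory phosphates by CDC25 phosphatases. The kinases PLK1, AURKA and AURKB then drive spindle assembly and chromosome attachment, and the spindle checkpoint holds the anaphase-promoting complex inactive until every chromosome is attached. The genes of this programme are transcribed mainly in G2 and mitosis, so their RNA level in a bulk sample also depends on the share of cells in these phases. Many of their promoters carry a CHR (cell cycle genes homology region), read by the MuvB core of the DREAM complex and of the MYB and FOXM1 activators, and CCAAT boxes, read by the factor NF-Y.

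Promoter windows from RefSeq (build GRCh38.p14, 250 bases before to 50 bases after the transcript start) were found for 35 of the 42 genes. Both strands were searched for the CHR letters TTTGAA, for the variant form written TTTAAA, for the rarer variant written TTCGAA, and for the NF-Y box CCAAT. At least 1 CHR form was present in 32 of 35 genes (91.4%), against 29.0% of the 27305 genes in the table. A CHR form whose first base lay within 60 bases before the start was found in 22 of 35 (62.9%), against 7.07% of all genes. CCAAT was present in 31 of 35 (88.6%) against 39.7%, and at 2 or more places in 20 of 35 (57.1%) against 12.9%. A match describes letters and not a bound factor.

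The 120 bases before the start are shown for 6 members that recur in the results. CCNB1 and CCNB2 encode the B-type cyclins, PLK1 a mitotic kinase, PRC1 and MKI67 were called in both populations, and AURKB had the lowest log2 fold change. Capitals mark CHR forms and CCAAT, or ATTGG where CCAAT lies on the opposite strand. The stretches are chr5:69167030-69167149 (plus strand), chr15:59105026-59105145 (plus strand), chr16:23678769-23678888 (plus strand), chr15:90994536-90994655 (minus strand), chr10:128126424-128126543 (minus strand) and chr17:8210226-8210345 (minus strand), in GRCh38.p14 and each read 5′ to 3′ on the gene's strand.
CCNB1: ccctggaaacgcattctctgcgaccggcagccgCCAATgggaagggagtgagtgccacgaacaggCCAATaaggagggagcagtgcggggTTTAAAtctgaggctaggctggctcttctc
CCNB2: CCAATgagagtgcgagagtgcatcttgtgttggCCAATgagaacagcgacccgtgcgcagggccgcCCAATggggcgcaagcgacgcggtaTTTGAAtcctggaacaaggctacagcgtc
PLK1: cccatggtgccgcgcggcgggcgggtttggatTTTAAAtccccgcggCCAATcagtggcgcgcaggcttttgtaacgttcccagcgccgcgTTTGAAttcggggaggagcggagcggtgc
PRC1: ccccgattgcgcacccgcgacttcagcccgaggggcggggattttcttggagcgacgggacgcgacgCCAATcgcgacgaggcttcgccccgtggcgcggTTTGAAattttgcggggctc
MKI67: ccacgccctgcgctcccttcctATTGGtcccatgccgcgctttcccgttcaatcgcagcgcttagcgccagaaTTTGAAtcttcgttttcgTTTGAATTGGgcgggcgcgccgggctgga
AURKB: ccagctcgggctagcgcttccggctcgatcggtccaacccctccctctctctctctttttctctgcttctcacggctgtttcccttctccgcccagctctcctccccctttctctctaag

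CCNB1, CCNB2, PLK1, PRC1 and MKI67 share an arrangement in these stretches: 1 or more CCAAT boxes lie upstream of a CHR form close to the start. In MKI67 a CHR form and the CCAAT box on the opposite strand overlap by 1 base. AURKB, shown from the first of its 2 windows, has no match to these motifs in this stretch. In ALDH1+ cells the 25 members with TTTGAA in a window had a median log2 fold change of -0.54, and the 10 members with a window but without TTTGAA had -0.50. In ALDH1- cells these medians were -0.22 and -0.17. Most of the 10 members without TTTGAA hold another CHR form. The 32 members with any CHR form had medians of -0.54 in ALDH1+ and -0.22 in ALDH1- cells. The 3 members with a window but no CHR form had -0.51 and -0.17.

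EPZ5676 was followed by lower RNA of most of these genes in ALDH1+ cells. Of the 42 genes 38 fell and 0 rose (90.5%), where 13.7% of all genes tested fell and 17.8% rose. Calls are at an adjusted p under 0.05 in edgeR's quasi-likelihood test with Benjamini-Hochberg adjustment over all genes, and every adjusted p below comes from that test unless another is named. The median log2 fold change of the 42 was -0.54, against -0.01 over all genes, and all 42 values were negative, from -0.94 for AURKB to -0.03 for ASPM. In 15 genes the fall was at least 1.5-fold. All 3 EPZ5676 libraries lay below all 3 DMSO libraries for 35 of 42 genes, and this held for 19.3% of all genes. A smaller share of dividing cells and less RNA per dividing cell cannot be told apart in these bulk libraries.

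In ALDH1- cells 4 of the 42 genes fell and 0 rose (9.52%), a share near the 9.04% of all genes that fell; 13.6% of all genes rose. These 4 were CDC25B, PRC1, FOXM1 and MKI67. The median was -0.21, against -0.02 over all genes, and 38 of 42 values were negative. The groups did not overlap, with EPZ5676 below, for 14 of 42 genes, against 19.4% of all genes. Replicate numbers pair the libraries here, and with the replicate number as a block 17 members were called lower, beside 14.8% of all genes, and 1 higher, beside 17.4%. The 13 added to the 4 were CDK1, CCNB2, AURKB, PLK4, BUB1, BUB1B, CDC20, KIF11, CDCA8, BIRC5, TOP2A, NUSAP1 and ECT2. The count of 4 became 1 when DMSO ALDH1- replicate 2 or 3, or EPZ5676 ALDH1- replicate 1 or 2, was left out, and 8 without EPZ5676 ALDH1+ replicate 3. The share of all genes in these refits is not given here, so whether the shifts are particular to the members was not tested. Without DMSO ALDH1- replicate 3 the median was -0.09, with 33 values negative.

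**Figure D1:**
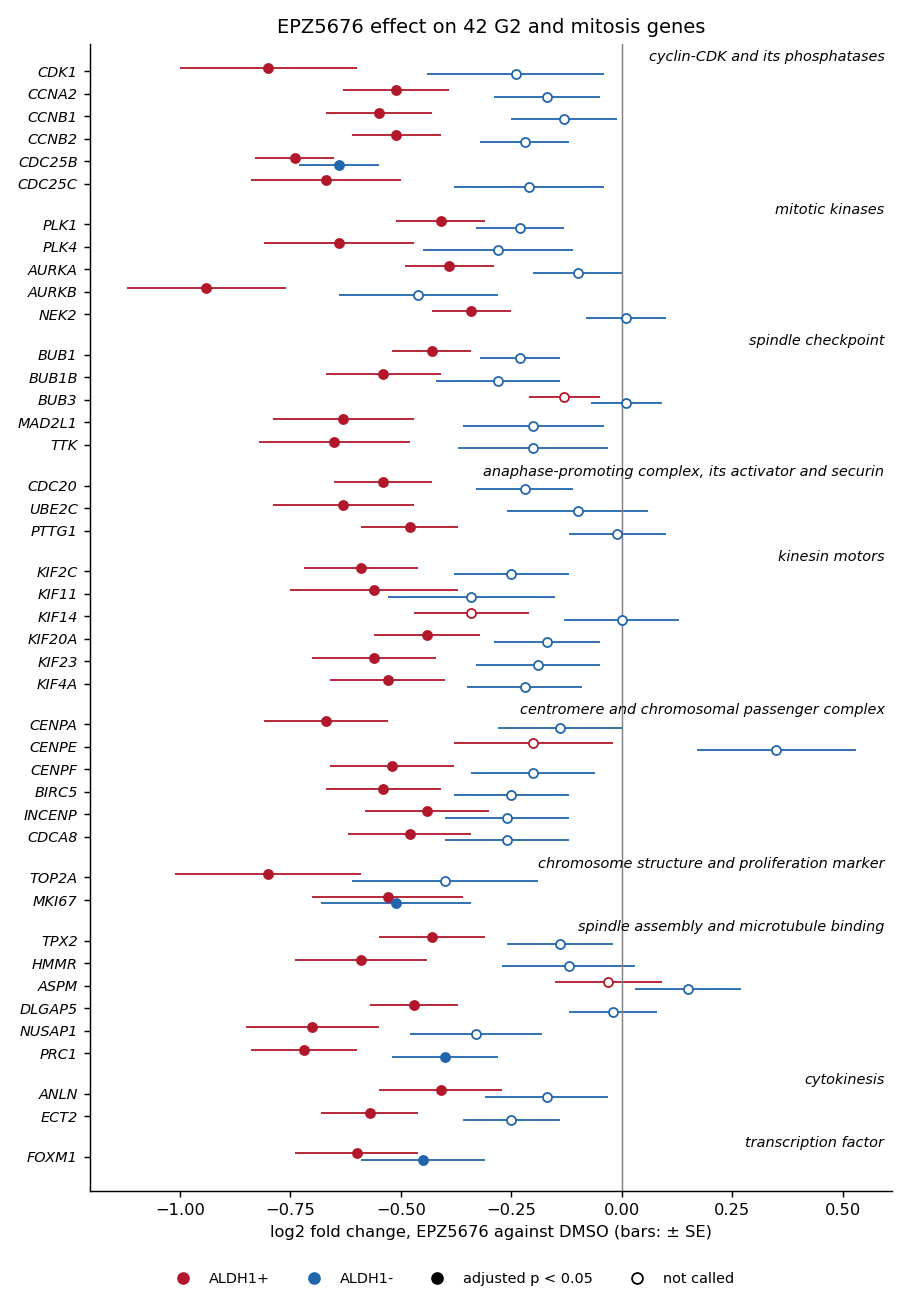
Log2 fold change of EPZ5676 against DMSO (horizontal axis) for each of the 42 genes, grouped by role, in ALDH1+ cells (red) and ALDH1- cells (blue). Bars show ± SE from the model fitted to all 12 libraries, 3 per group. Filled points have an adjusted p under 0.05: 38 red points and 4 blue points are filled, and each red point lies to the left of the blue point of its gene.

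The genes of CDK1 activation all fell in ALDH1+ cells. In the order of replicates 1, 2 and 3, CDK1, the kinase whose activity defines mitosis, had in ALDH1+ cells 177, 205 and 280 CPM with DMSO and 103, 108 and 170 CPM with EPZ5676, and in ALDH1- cells 137, 170 and 199 CPM with DMSO and 132, 129 and 169 CPM with EPZ5676. Its log2 fold change was -0.80 (SE 0.20, adjusted p = 0.007) in ALDH1+ cells and -0.24 (SE 0.20, adjusted p = 0.44) in ALDH1- cells, where it was called lower with the replicate block (adjusted p = 0.032). The 3 treated libraries lay clear of the controls in ALDH1+ cells and overlapped them in ALDH1- cells.

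CCNA2, the cyclin A of S phase and G2, had 107, 122 and 146 CPM in ALDH1+ cells given DMSO and 81.5, 79.2 and 103 CPM in those given EPZ5676, beside 93.7, 109 and 121 CPM in ALDH1- cells given DMSO and 94.5, 90.3 and 102 CPM in those given EPZ5676. CCNB1 (cyclin B1) had in ALDH1+ cells 125, 140 and 185 CPM with DMSO and 114, 90.8 and 104 CPM with EPZ5676, and in ALDH1- cells 146, 145 and 162 CPM with DMSO and 150, 139 and 123 CPM with EPZ5676. The ALDH1+ groups did not overlap for either gene, with log2 fold changes of -0.51 (SE 0.12, adjusted p = 0.0052) and -0.55 (SE 0.12, adjusted p = 0.0037). In ALDH1- cells the values overlapped, with -0.17 and -0.13. CCNB2 (cyclin B2) fell by 0.51 on the log2 scale in ALDH1+ cells, and its ALDH1- value of -0.22 had adjusted p = 0.13, and 0.019 with the replicate block.

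CDC25B (ENSG00000101224.13), the phosphatase that first activates CDK1 at centrosomes, had in ALDH1+ cells 240, 235 and 248 CPM with DMSO and 131, 132 and 171 CPM with EPZ5676, and in ALDH1- cells 237, 241 and 261 CPM with DMSO and 151, 158 and 166 CPM with EPZ5676. It had the smallest adjusted p of all members in both populations, with log2 fold changes of -0.74 (SE 0.09, adjusted p = 2.4e-05) in ALDH1+ and -0.64 (SE 0.09, adjusted p = 0.00012) in ALDH1- cells. Its controls lay close together, and its treated libraries were below them in both populations at similar levels. CDC25C, the phosphatase that acts at mitotic entry, had 8.7, 10.8 and 14 CPM in ALDH1+ cells given DMSO and 6.13, 6.58 and 8.7 CPM in those given EPZ5676, beside 9.68, 9.45 and 12.3 CPM in ALDH1- cells given DMSO and 8.57, 9.23 and 9.35 CPM in those given EPZ5676. In ALDH1+ cells it fell (-0.67, SE 0.17, adjusted p = 0.0081) although the highest treated library equalled the lowest control to the digits given, and in ALDH1- cells it had -0.21 (SE 0.17, adjusted p = 0.43).

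All 5 mitotic kinases fell in ALDH1+ cells. In ALDH1- cells 0 of 5 were called without the replicate block, and AURKB and PLK4 were called lower with it. AURKB (ENSG00000178999.8), the kinase of the chromosomal passenger complex, had in ALDH1+ cells 39.4, 45 and 60.3 CPM with DMSO and 22.4, 21.2 and 32.5 CPM with EPZ5676, and in ALDH1- cells 38, 40.2 and 50.6 CPM with DMSO and 32.3, 26.8 and 34.4 CPM with EPZ5676. The log2 fold change of -0.94 (SE 0.18, adjusted p = 0.00098) in ALDH1+ cells was the lowest of the 42. In ALDH1- cells the 3 treated libraries were also below the 3 controls, at -0.46 (SE 0.18, adjusted p = 0.077), and the adjusted p with the block was 0.00087.

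AURKA, the kinase of spindle poles, had 108, 126 and 144 CPM in ALDH1+ cells given DMSO and 96.2, 93.4 and 98.9 CPM in those given EPZ5676, beside 111, 125 and 129 CPM in ALDH1- cells given DMSO and 122, 114 and 104 CPM in those given EPZ5676. PLK1, which acts from mitotic entry to cytokinesis, had in ALDH1+ cells 113, 126 and 143 CPM with DMSO and 104, 82.2 and 102 CPM with EPZ5676, and in ALDH1- cells 135, 134 and 150 CPM with DMSO and 128, 121 and 107 CPM with EPZ5676. The ALDH1+ groups were separate for both kinases, which fell by 0.39 and 0.41 on the log2 scale. In ALDH1- cells AURKA overlapped (-0.10), and PLK1 did not, at -0.23 (SE 0.10, adjusted p = 0.13). NEK2, a kinase of centrosome separation, had in ALDH1+ cells 50, 58.7 and 65.3 CPM with DMSO and 46.2, 46.9 and 45 CPM with EPZ5676, and in ALDH1- cells 58, 54.8 and 58 CPM with DMSO and 61.2, 57.4 and 53.1 CPM with EPZ5676. Its ALDH1+ value of -0.34 (SE 0.09, adjusted p = 0.0092) stood beside 0.01 in ALDH1- cells. PLK4, which starts centriole duplication, fell in ALDH1+ cells (-0.64, SE 0.17, adjusted p = 0.0098) and had -0.28 in ALDH1- cells, where the groups overlapped and the adjusted p with the block was 0.025.

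Of the 5 spindle checkpoint genes 4 fell in ALDH1+ cells. BUB1B, the checkpoint protein BUBR1, had in ALDH1+ cells 67.9, 69.2 and 72.3 CPM with DMSO and 41.1, 40.9 and 62.8 CPM with EPZ5676, and in ALDH1- cells 61.6, 64.7 and 77.3 CPM with DMSO and 56.5, 53.7 and 57.5 CPM with EPZ5676. MAD2L1, the inhibitor of CDC20, had 67.5, 91.8 and 99.8 CPM in ALDH1+ cells given DMSO and 45.8, 57 and 65.1 CPM in those given EPZ5676, beside 53, 61.9 and 70.8 CPM in ALDH1- cells given DMSO and 50.7, 47.8 and 62.8 CPM in those given EPZ5676. TTK, the kinase MPS1 at the head of the checkpoint, had in ALDH1+ cells 117, 131 and 153 CPM with DMSO and 75.4, 69.1 and 112 CPM with EPZ5676, and in ALDH1- cells 97.7, 111 and 138 CPM with DMSO and 103, 89.1 and 110 CPM with EPZ5676. They all fell in ALDH1+ cells with treated libraries below the controls: -0.54 (SE 0.13, adjusted p = 0.0071) for BUB1B, -0.63 (SE 0.16, adjusted p = 0.0069) for MAD2L1 and -0.65 (SE 0.17, adjusted p = 0.0077) for TTK. In ALDH1- cells the values were -0.28, -0.20 and -0.20. BUB1, a kinetochore kinase, fell by 0.43 on the log2 scale in ALDH1+ cells and had -0.23 in ALDH1- cells. With the replicate block BUB1B (adjusted p = 0.037) and BUB1 (adjusted p = 0.039) were called lower in ALDH1- cells.

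BUB3, which partners BUB1 and BUBR1 at kinetochores, was not called in either population. It had 184, 194 and 226 CPM in ALDH1+ cells given DMSO and 182, 178 and 193 CPM in those given EPZ5676, beside 180, 178 and 193 CPM in ALDH1- cells given DMSO and 190, 171 and 193 CPM in those given EPZ5676. The groups overlapped in both populations, with -0.13 (SE 0.08, adjusted p = 0.25) in ALDH1+ and 0.01 (SE 0.08, adjusted p = 0.96) in ALDH1- cells.

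The 3 genes of the anaphase-promoting complex pathway fell in ALDH1+ cells. CDC20, its mitotic activator, had in ALDH1+ cells 244, 268 and 324 CPM with DMSO and 188, 167 and 222 CPM with EPZ5676, and in ALDH1- cells 258, 275 and 296 CPM with DMSO and 239, 237 and 236 CPM with EPZ5676. UBE2C, the ubiquitin-conjugating enzyme that works with the complex, had 81.8, 95.2 and 131 CPM in ALDH1+ cells given DMSO and 61, 57.8 and 81.5 CPM in those given EPZ5676, beside 85.7, 82.8 and 105 CPM in ALDH1- cells given DMSO and 87.2, 80.7 and 86.5 CPM in those given EPZ5676. PTTG1 (securin), which the complex destroys to free separase, had in ALDH1+ cells 88.8, 110 and 135 CPM with DMSO and 79.8, 81.8 and 77.5 CPM with EPZ5676, and in ALDH1- cells 87.8, 91.7 and 95.6 CPM with DMSO and 91.3, 85.5 and 97.2 CPM with EPZ5676. In ALDH1+ cells the log2 fold changes were -0.54 (SE 0.11, adjusted p = 0.0015), -0.63 (SE 0.16, adjusted p = 0.0069) and -0.48 (SE 0.11, adjusted p = 0.0042), each with non-overlapping groups. In ALDH1- cells they were -0.22, -0.10 and -0.01, and CDC20 was called lower there with the replicate block alone (adjusted p = 0.044).

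Of the 6 kinesin motors 5 fell in ALDH1+ cells. KIF11, the motor that pushes spindle poles apart, had 92.1, 101 and 119 CPM in ALDH1+ cells given DMSO and 57.8, 57 and 98 CPM in those given EPZ5676, beside 77.3, 96.1 and 113 CPM in ALDH1- cells given DMSO and 72.8, 65.1 and 88.9 CPM in those given EPZ5676. KIF20A, a motor of cytokinesis, had in ALDH1+ cells 115, 121 and 147 CPM with DMSO and 96.9, 79.9 and 106 CPM with EPZ5676, and in ALDH1- cells 123, 131 and 155 CPM with DMSO and 130, 125 and 109 CPM with EPZ5676. KIF20A fell with separate groups (-0.44, SE 0.12, adjusted p = 0.01). KIF11 fell (-0.56, SE 0.19, adjusted p = 0.038) although EPZ5676 ALDH1+ replicate 3 lay inside the control range. KIF2C, a microtubule depolymerase, fell by 0.59, KIF23, a central spindle motor, by 0.56 and KIF4A, a chromosome-arm motor, by 0.53 on the log2 scale. KIF14 had -0.34 (SE 0.13, adjusted p = 0.063, and 0.015 with the replicate block) in ALDH1+ cells and 0.00 in ALDH1- cells. Over the 6 motors the ALDH1- values lay between -0.34 and 0.00, 0 were called without the block, and KIF11 was called lower with it (adjusted p = 0.015).

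Of the 6 centromere and passenger genes 5 fell in ALDH1+ cells. CENPA, the centromeric histone H3 variant, had in ALDH1+ cells 40.1, 50.7 and 62.3 CPM with DMSO and 30.7, 30.9 and 34.7 CPM with EPZ5676, and in ALDH1- cells 38.7, 45.9 and 50 CPM with DMSO and 44.9, 37.6 and 39.5 CPM with EPZ5676. CENPF, a large kinetochore protein, had 311, 335 and 421 CPM in ALDH1+ cells given DMSO and 237, 203 and 303 CPM in those given EPZ5676, beside 322, 367 and 438 CPM in ALDH1- cells given DMSO and 342, 333 and 305 CPM in those given EPZ5676. BIRC5 (survivin), a passenger complex subunit, had in ALDH1+ cells 170, 207 and 240 CPM with DMSO and 122, 142 and 159 CPM with EPZ5676, and in ALDH1- cells 152, 172 and 195 CPM with DMSO and 137, 135 and 165 CPM with EPZ5676. The ALDH1+ groups were separate for each, with -0.67 (SE 0.14, adjusted p = 0.0016) for CENPA, -0.52 (SE 0.14, adjusted p = 0.012) for CENPF and -0.54 (SE 0.13, adjusted p = 0.0056) for BIRC5. The passenger subunits INCENP and CDCA8 (borealin) fell by 0.44 and 0.48 on the log2 scale, and 1 treated CDCA8 library lay inside the control range. In ALDH1- cells BIRC5 (adjusted p = 0.0057) and CDCA8 (adjusted p = 0.01) were called lower with the replicate block alone.

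CENPE (ENSG00000138778.7), the kinetochore motor that moves chromosomes to the metaphase plate, had the highest log2 fold change of the 42 in ALDH1- cells. It had 66.9, 77.3 and 120 CPM in ALDH1+ cells given DMSO and 75, 69.5 and 87.5 CPM in those given EPZ5676, beside 61.2, 79.3 and 92.8 CPM in ALDH1- cells given DMSO and 107, 95.2 and 94.6 CPM in those given EPZ5676. All 3 treated ALDH1- libraries lay above the 3 controls, with 0.35 (SE 0.18, adjusted p = 0.2), and CENPE was the only member called higher with the replicate block (adjusted p = 0.039). In ALDH1+ cells the groups overlapped at -0.20 (SE 0.18, adjusted p = 0.45).

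TOP2A, the topoisomerase that untangles sister chromatids, had in ALDH1+ cells 324, 382 and 510 CPM with DMSO and 187, 190 and 322 CPM with EPZ5676, and in ALDH1- cells 282, 349 and 442 CPM with DMSO and 274, 240 and 301 CPM with EPZ5676. It fell in ALDH1+ cells (-0.80, SE 0.21, adjusted p = 0.0094), where the groups were separate by a narrow margin, and had -0.40 (SE 0.21, adjusted p = 0.2) in ALDH1- cells, where they overlapped and the adjusted p with the replicate block was 0.0092. MKI67, which encodes the proliferation marker Ki-67 that coats mitotic chromosomes, had 373, 418 and 379 CPM in ALDH1+ cells given DMSO and 239, 210 and 363 CPM in those given EPZ5676, beside 358, 464 and 550 CPM in ALDH1- cells given DMSO and 326, 332 and 307 CPM in those given EPZ5676. It fell in ALDH1+ (-0.53, SE 0.17, adjusted p = 0.027) and ALDH1- cells (-0.51, SE 0.17, adjusted p = 0.044) with no overlap in either. EPZ5676 ALDH1+ replicate 3 was just under the lowest control of that population. The MKI67 call in ALDH1- cells was lost with limma-voom and with total counts without scaling.

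Of the 6 spindle assembly genes 5 fell in ALDH1+ cells. TPX2, the activator of AURKA, had in ALDH1+ cells 196, 217 and 257 CPM with DMSO and 161, 143 and 196 CPM with EPZ5676, and in ALDH1- cells 206, 221 and 252 CPM with DMSO and 212, 205 and 200 CPM with EPZ5676. HMMR, a spindle and centrosome protein, had 64, 73.1 and 95.5 CPM in ALDH1+ cells given DMSO and 45.5, 48 and 61.8 CPM in those given EPZ5676, beside 57.3, 63.6 and 75.8 CPM in ALDH1- cells given DMSO and 63, 53.1 and 64.8 CPM in those given EPZ5676. The highest treated TPX2 library of ALDH1+ cells equalled the lowest control to the digits given. Both fell in ALDH1+ cells, at -0.43 (SE 0.12, adjusted p = 0.011) and -0.59 (SE 0.15, adjusted p = 0.0077), and their ALDH1- groups overlapped at -0.14 and -0.12. PRC1, which bundles the microtubules of the central spindle, had in ALDH1+ cells 150, 148 and 174 CPM with DMSO and 88.1, 81.7 and 117 CPM with EPZ5676, and in ALDH1- cells 126, 143 and 161 CPM with DMSO and 108, 106 and 112 CPM with EPZ5676. PRC1 fell in ALDH1+ (-0.72, SE 0.12, adjusted p = 0.00033) and in ALDH1- cells (-0.40, SE 0.12, adjusted p = 0.025), with treated libraries below controls in both. NUSAP1, a microtubule-binding protein, fell by 0.70 on the log2 scale in ALDH1+ cells, and in ALDH1- cells it was called lower with the replicate block alone (adjusted p = 0.0051).

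DLGAP5 (ENSG00000126787.8), a protein of kinetochore fibres, had 67.7, 80.1 and 87.8 CPM in ALDH1+ cells given DMSO and 58.4, 51.8 and 59.7 CPM in those given EPZ5676, beside 67.3, 72.7 and 81.5 CPM in ALDH1- cells given DMSO and 78.7, 70 and 70.4 CPM in those given EPZ5676. In ALDH1+ cells it fell (-0.47, SE 0.10, adjusted p = 0.0022), and in ALDH1- cells the values overlapped with -0.02. ASPM, a spindle pole protein, had in ALDH1+ cells 161, 171 and 185 CPM with DMSO and 161, 146 and 198 CPM with EPZ5676, and in ALDH1- cells 158, 187 and 220 CPM with DMSO and 225, 212 and 190 CPM with EPZ5676. Its groups overlapped in both populations, with -0.03 (SE 0.12, adjusted p = 0.87) and 0.15 (SE 0.12, adjusted p = 0.42).

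ANLN (anillin), the scaffold of the cleavage furrow, had in ALDH1+ cells 498, 507 and 530 CPM with DMSO and 356, 310 and 490 CPM with EPZ5676, and in ALDH1- cells 404, 475 and 555 CPM with DMSO and 436, 396 and 446 CPM with EPZ5676. It fell in ALDH1+ cells (-0.41, SE 0.14, adjusted p = 0.035), where EPZ5676 replicate 3 came close to the lowest control, and had -0.17 in ALDH1- cells. ECT2, the exchange factor that starts furrowing, fell by 0.57 on the log2 scale in ALDH1+ cells, and in ALDH1- cells it was called lower with the replicate block alone (adjusted p = 0.017). FOXM1, the transcription factor that activates many genes of this list, had 104, 106 and 118 CPM in ALDH1+ cells given DMSO and 64.1, 60.4 and 92.2 CPM in those given EPZ5676, beside 93.2, 110 and 123 CPM in ALDH1- cells given DMSO and 72.2, 78.3 and 88.6 CPM in those given EPZ5676. FOXM1 fell in both populations, by 0.60 (SE 0.14, adjusted p = 0.0045) in ALDH1+ and 0.45 (SE 0.14, adjusted p = 0.033) in ALDH1- cells on the log2 scale, with no overlap of groups in either.

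**Figure D2:**
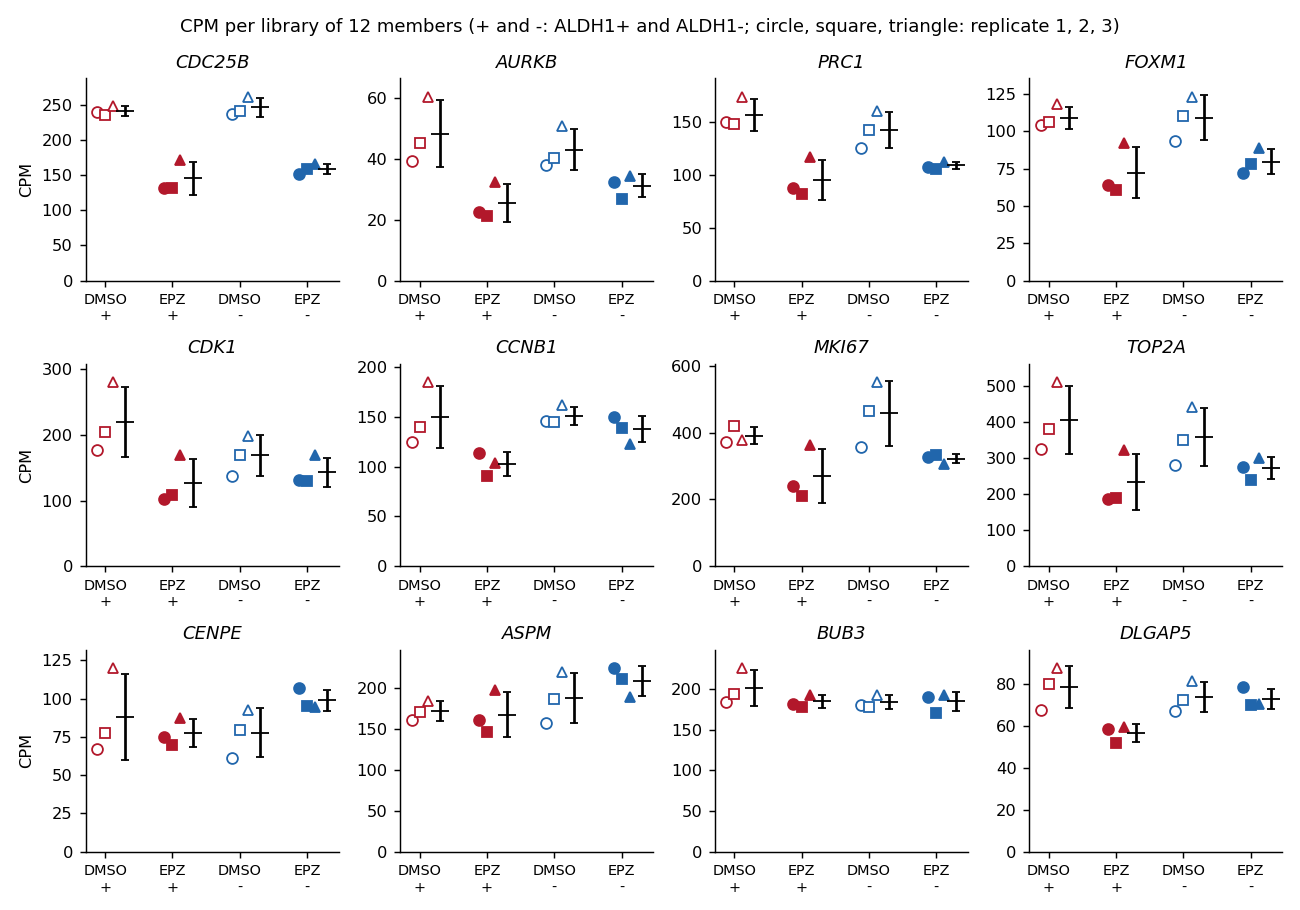
CPM (vertical axes, from 0) of 12 members in each of the 12 libraries, by group; open symbols are DMSO and filled symbols EPZ5676, circles, squares and triangles are replicates 1, 2 and 3, and the bar beside each group is mean ± SD of 3 libraries. CDC25B, AURKB, PRC1, FOXM1 and MKI67 have treated values below all controls in both populations. CDK1, CCNB1, TOP2A and DLGAP5 have them in ALDH1+ cells and overlap in ALDH1- cells.

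The effect in ALDH1+ cells was set against that in ALDH1- cells by an interaction term, which tests the difference between both effects. None of the 42 members was called, and the share over all genes was 0% in either direction. DESeq2 and limma-voom also called 0 members, and 8 had an unadjusted p under 0.05 in edgeR's quasi-likelihood test. The differences were negative for all 42 genes, with a median of -0.33 against 0.01 over all genes, from -0.56 for CDK1 to -0.02 for MKI67. With the replicate block 0 were called and 31 had an unadjusted p under 0.05. When single libraries were left out 0 were called, and the count at an unadjusted p under 0.05 lay between 4 and 37. It was 37 without EPZ5676 ALDH1+ replicate 3, 25 without DMSO ALDH1- replicate 3 and 23 without DMSO ALDH1+ replicate 1. It was 5 without EPZ5676 ALDH1+ replicate 1, and 4 without DMSO ALDH1+ replicate 3, DMSO ALDH1- replicate 1 or 2, EPZ5676 ALDH1+ replicate 2 or EPZ5676 ALDH1- replicate 1. The share of all genes at this unadjusted threshold is not given for any comparison or fit here. Whether these counts and their shifts are particular to the members was therefore not tested. With no filter on low counts 3 members were called lower, beside 0.0359% of the 33418 genes then tested. In the other fits the difference between populations did not pass the test for any single member.

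DLGAP5 had the smallest unadjusted p of the interaction, with a difference of -0.46 (SE 0.14, adjusted p = 0.98). PTTG1 followed with -0.48 (SE 0.16, adjusted p = 0.98), and CENPA with -0.53 (SE 0.19, adjusted p = 0.98). CDC25B, FOXM1, PRC1 and MKI67, called in both populations without the block, had differences of -0.10 for CDC25B, -0.16 for FOXM1, -0.32 for PRC1 and -0.02 for MKI67. Across the 12 libraries, which share treatment and replicate structure, the members whose log2 CPM most resembled DLGAP5 were AURKA and CENPA (Pearson r 0.95 for each) and CCNB1 (0.93).

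Within replicate pairs, which set a treated library against the control of the same number and population, the mean log2 effect over the members was -0.43, -0.67 and -0.48 in ALDH1+ cells for replicates 1, 2 and 3. In ALDH1- cells it was -0.01, -0.24 and -0.34. The treated library was the lower for 40, 42 and 41 of 42 genes in the ALDH1+ pairs and for 23, 39 and 40 in the ALDH1- pairs. ALDH1- replicate 1 was the pair in which the members were about as often higher as lower.

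The treated library was the lower in all 3 pairs for 40 of 42 genes in ALDH1+ cells, against 30.2% of all genes, and for 23 of 42 in ALDH1- cells, against 30.7%. The 2 exceptions in ALDH1+ cells were CENPE, with pair effects of 0.16, -0.15 and -0.46, and ASPM, with 0.00, -0.23 and 0.10. The effect was lower in ALDH1+ than in ALDH1- cells at all 3 replicate numbers for 30 of 42 genes, where 12.9% of all genes had this pattern. CDK1 was among them, with -0.77, -0.93 and -0.71 against -0.05, -0.40 and -0.24. MKI67 was not: its ALDH1+ effects of -0.64, -1.0 and -0.06 stood beside -0.13, -0.48 and -0.84 in ALDH1- cells.

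**Figure D3:**
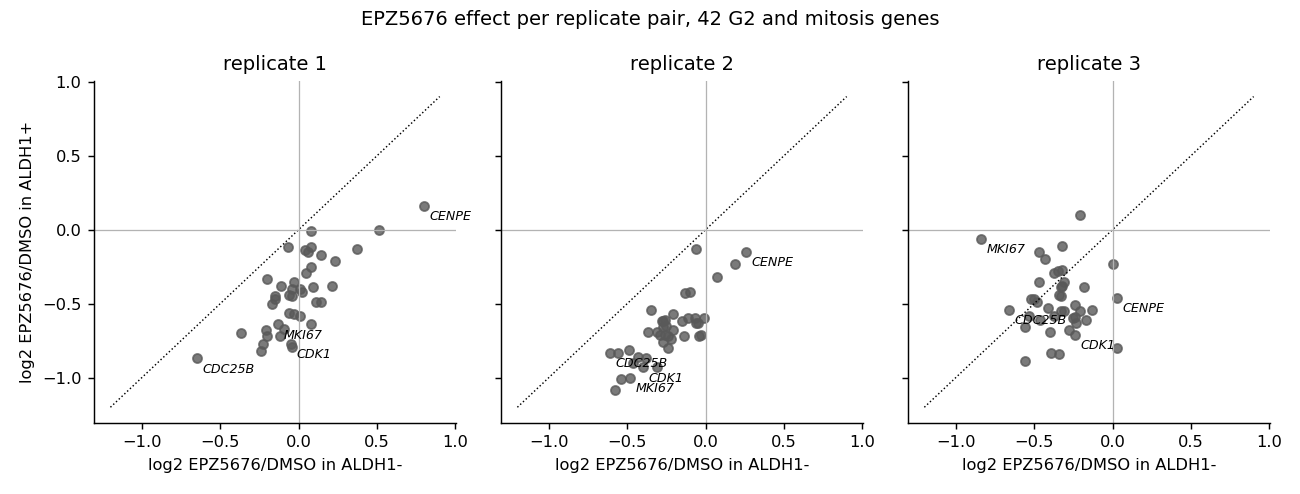
Log2 ratio of EPZ5676 to DMSO within each replicate pair for the 42 genes, in ALDH1- cells (horizontal axis) and ALDH1+ cells (vertical axis), 1 panel per replicate number; the dotted line marks equal effects. All points lie below the line at replicates 1 and 2, and at replicate 3 some, among them MKI67, lie above it.

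The members were also compared library by library. Relative to the mean of the 6 DMSO libraries on the log2 scale, the mean of the 42 genes in DMSO ALDH1+ replicates 1, 2 and 3 was -0.14, 0.02 and 0.25, and in DMSO ALDH1- it was -0.21, -0.06 and 0.14. In EPZ5676 ALDH1+ it was -0.58, -0.66 and -0.23, and in EPZ5676 ALDH1- -0.22, -0.30 and -0.20. Group means were 0.04 ± 0.20, -0.04 ± 0.18, -0.49 ± 0.23 and -0.24 ± 0.05 in this order (SD, n = 3).

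Replicate 3 was the highest of its group for most members. This held for 40 of 42 genes in DMSO ALDH1+ cells, 41 in DMSO ALDH1- cells, 38 in EPZ5676 ALDH1+ cells and 25 in EPZ5676 ALDH1- cells. The treated ALDH1+ library of replicate 3, at -0.23, was near the 3 treated ALDH1- libraries, and those of replicates 1 and 2 were below them. Without the replicate 2 libraries of all 4 groups, 5 members fell in ALDH1+ cells, namely AURKB, CCNB2, CDC25B, ECT2 and PRC1, where 4.11% of all genes fell; 33 of 42 then had an unadjusted p under 0.05 and the median was -0.47.

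**Figure D4:**
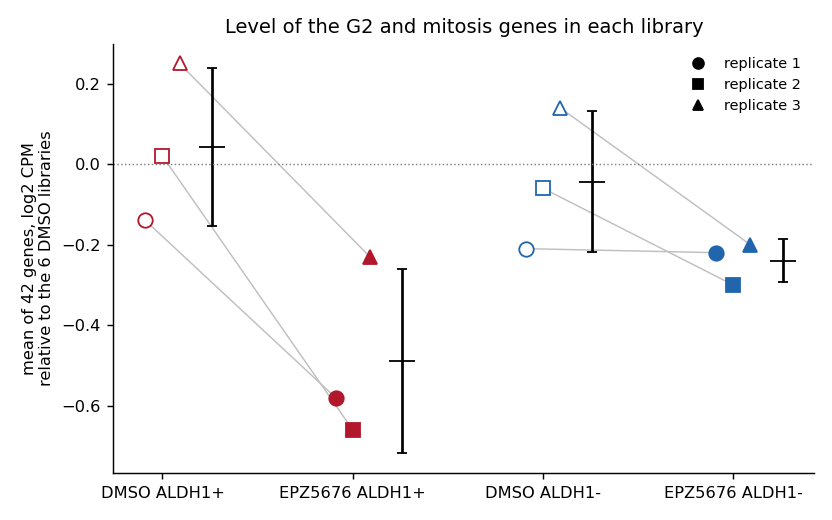
Mean log2 CPM of the 42 genes in each library relative to the mean of the 6 DMSO libraries (vertical axis), by group; grey lines join the libraries of a replicate number, and black bars are mean ± SD of 3 libraries. The EPZ5676 ALDH1+ libraries of replicates 1 and 2, at -0.58 and -0.66, are the lowest of the 12, and the lines fall in all ALDH1+ pairs and in ALDH1- replicates 2 and 3.

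Between ALDH1+ and ALDH1- cells given DMSO, 0 of 42 members were called, as were 0% of all genes in either direction, and 2 had an unadjusted p under 0.05 in edgeR's quasi-likelihood test. DESeq2 and limma-voom also called 0. The median log2 difference was 0.09, and 10 of 42 were negative. The sign of this median changed with 1 library: it was -0.02 with 24 negative without DMSO ALDH1+ replicate 3. It was 0.03 with 20 negative without DMSO ALDH1- replicate 1, 0.15 with 5 negative without DMSO ALDH1+ replicate 1, and 0.18 with 2 negative without DMSO ALDH1- replicate 3. MAD2L1 had the smallest p at 0.48 (SE 0.16, adjusted p = 0.17). With the replicate block 3 members were higher in ALDH1+ cells, where 3.45% of all genes were: MAD2L1 (0.47, adjusted p = 0.0072), CDK1 (0.37, adjusted p = 0.016) and BIRC5 (0.24, adjusted p = 0.027). The count at an unadjusted p under 0.05 was 9 with the block, 8 without DMSO ALDH1+ replicate 1, 6 without DMSO ALDH1- replicate 3 and 1 without DMSO ALDH1+ replicate 3. Whether these counts are particular to the members was not tested, as the share of all genes at this unadjusted threshold is not given.

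In cells given EPZ5676, 41 of 42 differences between ALDH1+ and ALDH1- cells were negative, with a median of -0.23, and 0 were called by edgeR's quasi-likelihood test, where 0% of all genes were called lower and 0.0184% higher. DESeq2 and limma-voom also called 0, and an unadjusted p under 0.05 was found for 16 members. With the replicate block 0 were called and 30 had an unadjusted p under 0.05. This count was 37 without EPZ5676 ALDH1+ replicate 3 (median -0.40), 4 without EPZ5676 ALDH1+ replicate 2 (median -0.14) and 9 without EPZ5676 ALDH1- replicate 1 (median -0.23). The share of all genes at this unadjusted threshold is not given here. Whether these counts are particular to the members was not tested. DLGAP5 had -0.37 (SE 0.10, adjusted p = 0.50), NEK2 -0.31 (SE 0.09, adjusted p = 0.50) and CCNB1 -0.42 (SE 0.12, adjusted p = 0.54). By replicate number the mean over members was -0.36, -0.35 and -0.03. Replicate 3 showed almost no difference, and without its libraries 7 members were called lower in ALDH1+ cells, namely CDC20, ASPM, CENPF, KIF20A, BUB1B, TPX2 and UBE2C, beside 0.25% of all genes.

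Other genes of the same machinery, taken as lists, were examined beside the members. Of 28 further kinetochore, cohesin and condensin genes 18 fell and 0 rose in ALDH1+ cells (median -0.57), among them SKA3 (-0.60), HJURP (-0.64), OIP5 (-0.84) and NCAPH (-0.65), and in ALDH1- cells 0 were called by edgeR's quasi-likelihood test (median -0.27), with 9 at an unadjusted p under 0.05. With the replicate block these counts were 27 and 17 of 28. Of 21 further spindle and cytokinesis genes 17 fell in ALDH1+ cells (median -0.52), with CEP55 at -0.48 and KIF18B at -0.71, and 3 fell in ALDH1- cells (median -0.23): KIF18B (-0.66), NUMA1 (-0.24) and TROAP (-0.35). With the block 12 of the 21 were called lower in ALDH1- cells. In neither list was a gene called in the interaction, whose medians were -0.27 and -0.29.

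Among 18 genes that control entry into mitosis, 8 fell in ALDH1+ cells (median -0.23), with the smallest p for CHEK2 (-0.67), CKS1B (-0.60) and PKMYT1 (-0.86), the kinase that holds CDK1 inactive. In ALDH1- cells PKMYT1 fell (-0.67) and GADD45A rose (0.69). With the replicate block 11 were called lower and 1 higher in ALDH1+ cells, and 5 lower and 2 higher in ALDH1- cells. GADD45A was called higher in both populations with the block, and 0 of the 18 were called in the interaction. Of 14 subunits of DREAM, MuvB and NF-Y, 5 fell in ALDH1+ cells (35.7%, beside 13.7% of all genes) and 3 in ALDH1- cells (21.4%, beside 9.04%). MYBL2, the MYB protein that joins MuvB in S phase, fell in both (-0.85, SE 0.13, adjusted p = 0.00019; -0.62, SE 0.13, adjusted p = 0.0032), as did RBBP4 and NFYC.

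Genes of DNA replication and S phase had medians of -0.29 in ALDH1+ and -0.23 in ALDH1- cells. Of 29 tested out of 30 listed, 11 fell (37.9%) and 1 rose in ALDH1+ cells, and 4 fell (13.8%) and 1 rose in ALDH1- cells. With the replicate block 18 were called lower in ALDH1+ and 16 in ALDH1- cells. CCNE1 (cyclin E1) was the gene that rose in each, by 0.50 and 0.41 on the log2 scale. Their median interaction was -0.03, beside -0.33 for the 42 members. Of 10 D cyclin and CDK inhibitor genes tested, 3 rose and 4 fell in ALDH1+ cells, and 4 rose and 1 fell in ALDH1- cells, where 2 were called lower with the block. CDKN1A, which encodes the CDK inhibitor p21, rose by 1.12 (SE 0.11, adjusted p = 4.5e-06) and 0.94 (SE 0.12, adjusted p = 3.8e-05), and CCND1 (cyclin D1) and CDK6 rose in both populations. The CDK inhibitor genes did not move together. CDKN1B fell in ALDH1+ cells (-0.52, SE 0.10, adjusted p = 0.001), and with the replicate block it was called lower in both populations. CDKN1C rose in ALDH1- cells (1.18, SE 0.26, adjusted p = 0.0043).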

How the data were processed

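Bulk RNA sequencing libraries of 4 groups with 3 replicates each were analysed. Per the submitters' processing notes, Trim Galore and STAR were used with build hg19. Which program counted the reads, and whether it used strand, is not stated per the labels or notes, so counts of genes with overlapping neighbours or close copies are uncertain. The authors deposited whole-number read counts per gene without normalization.

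Counts were filtered with filterByExpr by group and scaled by TMM (factors 0.975 to 1.021). All 12 libraries were fitted in 1 model with a term per group in edgeR 4.0.16 (R 4.3.3), and 5 contrasts were tested with the quasi-likelihood F test. CPM are per 1000000 TMM-scaled counts, and pair effects are differences of log2 CPM with a prior count of 2. Scripts were tested on simulated data. The biological coefficient of variation was 9.6%. The labels call the replicates biological and do not say how cultures were kept apart.

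Over 12354 genes, libraries of the same replicate number deviated together from their group means in all 18 pairs (r from 0.17 to 0.65), so the numbers pair the libraries. The main calls and adjusted p do not use this pairing, and the fit with the replicate block does. Alternatives were median-ratio scaling, total counts, other filters, DESeq2 1.42.0, limma-voom (limma 3.58.1), the block, fits of only the groups compared, another prior count, and leaving out libraries or replicate numbers.

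The members and lists were chosen with earlier results of these data known. All 42 members could be named; library values are given by a rule that took fixed regulators of each role and the smallest p of each comparison, with CENPE and ASPM added after their values were seen. Up to 4 genes of smallest p were named from each other list. Promoter windows of 7 members were not used here.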

Additional observations from a re-analysis of the deposited data

How the results depend on the processing

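The count of members called in ALDH1+ cells, 38, lay between 26 and 39 when single libraries were left out, and was 5 without replicate 2 in all 4 groups. The share of all genes called lower moved too. It was 9.04% without DMSO ALDH1+ replicate 3, with 26 members called, and 13.8% without DMSO ALDH1- replicate 1, with 39. No fit reversed a direction of a called gene. Of 874 refits of the 38 genes 796 kept the call and 78 lost it, and 5 genes were called in every fit. In ALDH1- cells the count of 4, all lower, became 18 with no filter on low counts (17 lower, beside 4.57% of all genes, and 1 higher, beside 7.67%) and 18 with the replicate block (17 lower, 1 higher). It was 8 with only the groups compared (7 lower, beside 8.72%, and 1 higher, beside 15%), and 1 to 8, all lower, when single libraries were left out. Without replicate 1, 2 or 3 in all 4 groups it was 2 (lower, beside 4.91%), 1 (lower, beside 2.4%) and 9 (7 lower, beside 8.69%, and 2 higher, beside 13.3%), and the median without replicate 3 was -0.12. CDC25B was called there in every fit. Of 92 refits of the 4 genes 68 kept the call and 24 lost it. MKI67 lost it with total counts, with a filter of at least 1 CPM in 3 libraries, with limma-voom and when several of the libraries were left out. FOXM1 and PRC1 lost it only when libraries were left out. The interaction had 3 members called lower with no filter, beside 0.0359% of all genes, and 0 in every other fit. Between populations with DMSO, 4 members were called higher in ALDH1+ cells with no filter, beside 1.61% of all genes, and 3 with the replicate block. With EPZ5676, 10 were called lower with no filter, beside 0.287%, and 7 without replicate 3 in all 4 groups. The fit with no filter covered 33418 genes, against 16327 in the main fit. Its shares of all genes include genes of very low counts and are not comparable with those of the main fit. The replicate block moved no other count of members called by over 1.5 times, and it raised the counts at an unadjusted p under 0.05 from 8 to 31 in the interaction, from 2 to 9 between populations with DMSO and from 16 to 30 with EPZ5676. The cause of these changes was not tested, and the share of all genes at this unadjusted threshold is not given. Leaving out a replicate number also leaves fewer libraries.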
